A study of Mus musculus with 7 samples.

Results

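The 10 genes described here, *H19*, *Igf2*, *Dlk1*, *Meg3*, *Peg3*, *Plagl1*, *Cdkn1c*, *Grb10*, *Igf2r* and *Mest*, are imprinted genes known for their part in growth control. They were picked by gene symbol, with the values of TG and CTR papillomas already known, from 23122 symbols with a usable estimate in every papilloma. For this reason their differences between TG and CTR are given as a description, with no test. The RNA came from skin papillomas of 7 mice, 1 papilloma from each of 4 CTR and 3 TG animals. Both groups were littermates on the C57Bl/6 background, young adult and matched for age when treatment began, so older when the papillomas were collected. Each group carried the *tetO-Nanog* allele, a *Nanog* cDNA under a doxycycline-responsive promoter placed downstream of *Col1a1*. Both drank doxycycline (DOX, 2 mg/ml) during the whole DMBA/TPA protocol, in which a single dose of the mutagen DMBA is followed by repeated TPA, a promoter of tumor growth. TG mice also carried *K5-rtTA*, the transactivator that switches the allele on, under a cytokeratin promoter active in basal keratinocytes, so CTR mice had the allele and the drug but no transactivator. The papillomas were collected whole, when the protocol ended or earlier where a tumor had reached the humane limit, and hold other cells in which the K5 promoter is not active. In such bulk tissue, fewer cells of a type and less RNA per cell cannot be told apart.

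Imprinted genes are transcribed mainly from the maternal or from the paternal copy, as set by DNA methylation laid down in the germ line. In the best known cluster, the noncoding RNA *H19* is made from the maternal copy and the growth factor gene *Igf2* from the paternal copy, and both share enhancers, while the receptor IGF2R removes IGF2 from the cell surface. Many of these genes are active in fetal tissues, are turned down after birth and are known to come back in regenerating tissue and in some tumors, and *H19* is also abundant in skeletal muscle.

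*Nanog*, from the allele and the endogenous gene together, was checked first. Its level in FPKM, fragments scaled for the length of the transcript and for library size, was 2.70, 2.84, 12.7 and 3.34 in CTR 1 to CTR 4 and 36.9, 57.4 and 66.9 in TG 1 to TG 3, so every TG papilloma lay above every CTR papilloma. Depth is not given and was worked out from the intervals that Cufflinks gives each value, which implied between 10074858 and 15710561 reads on genes, with CTR 3 and TG 1 the deeper libraries. Genes were compared by limma on log2(FPKM + 0.5), a scale that understates the change of low genes, where the mean over all papillomas was at least 0.5 FPKM. Of 12299 such genes, 0.0% passed an adjusted p of 0.05 in either direction, *Nanog* included (log2 difference 3.45, adjusted p = 0.40), while 4.86% were higher and 1.96% lower in TG at an unadjusted p under 0.05, which makes 6.82% in either direction. The levels of 41.1% of these genes were highest in TG 3, and the median FPKM over all entries reached 1.14 there, with the other 6 papillomas at 0.539 to 0.673.

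*H19* lies at chr7:142575532-142578146 (GRCm38, counted from 1, minus strand) and is annotated as a long noncoding RNA. *Igf2* lies on the same strand at chr7:142650768-142661035, 72.6 kb away. *H19* is also the host of miR-675, and the hairpin falls in exon 1 of the annotated transcript of 2286 bases, at its bases 997 to 1080. The mature sequences from RefSeq (GRCm38.p6) are shown because they are the part of the *H19* transcript that is cut out as a separate regulator, with the seed, bases 2 to 8, in capitals.
mmu-miR-675-5p: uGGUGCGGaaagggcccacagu
mmu-miR-675-3p: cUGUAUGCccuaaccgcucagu
The arms map to chr7:142577112-142577133 and chr7:142577078-142577099 on the minus strand, and their seeds differ. Mature microRNAs are not captured by these polyA+ libraries, and the listed values of the hairpin entry, which had the status of too little data in every papilloma, hold no measurement of them.

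*H19* was high in 2 of the 3 TG papillomas. Its level was 0.0690, 0.0856, 0.138 and 0.246 FPKM in CTR 1 to CTR 4, and 0.0928, 4.57 and 13.4 FPKM in TG 1 to TG 3. TG 1 lay inside the CTR range, while TG 2 was 18.6 times and TG 3 was 54.5 times the highest CTR papilloma. The intervals implied 3, 4, 9 and 10 reads in CTR papillomas and 6, 203 and 532 reads in TG papillomas, so the low levels rest on few reads and the high levels do not. The interval of TG 2 ran from 3.93 to 5.22 FPKM and that of TG 3 from 12.2 to 14.6 FPKM, both clear of the highest bound of any CTR papilloma, 0.402 FPKM. These intervals cover counting error of a library only. TG papillomas averaged 6.03 ± 6.78 FPKM (SD, n = 3) and CTR papillomas 0.135 ± 0.0798 FPKM (SD, n = 4), and the log2 difference was 2.46 (SE 0.87). The difference was 1.46 without TG 3 and 3.74 in the 5 papillomas of lower depth, which leave out TG 1. *H19* passed the filter on low values only through the TG papillomas.

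**Figure D1:**
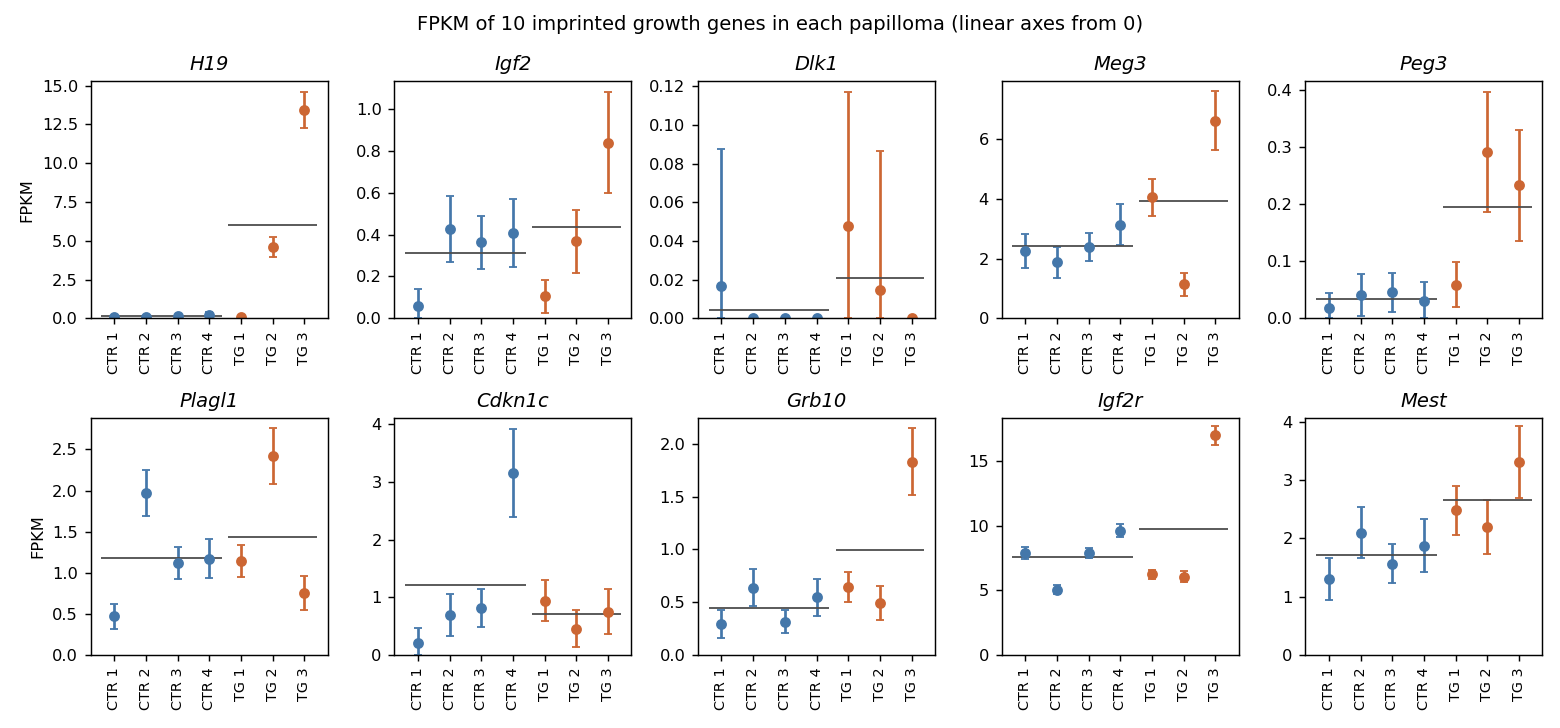
FPKM (linear axes from 0, a scale for each gene) of the 10 imprinted growth genes in CTR 1 to CTR 4 (blue) and TG 1 to TG 3 (orange). Points are single papillomas, bars are the Cufflinks intervals of each library and horizontal lines are group means. *H19* and *Peg3* stand out in TG 2 and TG 3, while *Igf2r* and *Grb10* stand out in TG 3 only.

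*Igf2*, which encodes the fetal growth factor IGF2, was low in all papillomas and did not share the *H19* pattern. Its level was 0.0595, 0.426, 0.362 and 0.406 FPKM in CTR papillomas and 0.105, 0.367 and 0.838 FPKM in TG papillomas. TG 2, with its high *H19*, had an *Igf2* level inside the CTR range, and TG 3 was 1.97 times the highest CTR papilloma. TG papillomas averaged 0.437 ± 0.372 FPKM (SD, n = 3) and CTR papillomas 0.314 ± 0.171 FPKM (SD, n = 4). The log2 difference of 0.16 was below the pooled SD of 0.45 and changed sign without TG 3 (-0.14) or without CTR 1 (-0.01). *Igf2* was too low for the test across genes. The intervals implied 2, 30, 32 and 25 reads of *Igf2* in CTR papillomas and 7, 24 and 49 in TG papillomas. The ratio of *H19* to *Igf2*, both per transcript length, was between 0.201 and 1.16 in CTR papillomas and 0.885 in TG 1, but 12.5 in TG 2 and 16 in TG 3. The ratios of CTR papillomas and TG 1 are imprecise, since they rest on few reads of *H19* and, in CTR 1 and TG 1, also of *Igf2*.

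*Peg3*, a paternally expressed zinc finger gene at chr7:6705960-6730419 (minus strand), was the other gene with high values in both TG 2 and TG 3, at a far lower level. Its level was 0.0184, 0.0411, 0.0457 and 0.0297 FPKM in CTR papillomas and 0.0589, 0.291 and 0.233 FPKM in TG papillomas. All 3 TG papillomas lay above all 4 CTR papillomas, TG 1 by little. TG 2 was 6.37 times and TG 3 was 5.10 times the highest CTR papilloma, and their intervals did not reach those of CTR papillomas. Reads were few, with 2, 5, 7 and 3 in CTR papillomas and 9, 31 and 23 in TG papillomas. TG papillomas averaged 0.194 ± 0.121 FPKM (SD, n = 3) and CTR papillomas 0.0337 ± 0.0122 FPKM (SD, n = 4). The log2 difference was 0.36 with 0.5 added to each value and 1.04 with 0.1 added, since such low levels are flattened by the larger addition, and the gene was too low for the test.

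Promoter windows from RefSeq (GRCm38.p6), which run from 250 bases before to 50 bases after a start site, were searched on both strands for 2 motifs of 8 bases. These were GGGGCCCC, the core bound by PLAGL1, and TGACGTCA, the cAMP response element, each of which reads the same on both strands. Of 32851 windows, 1.08% held the first and 1.79% the second. 8 of the 10 genes had 15 windows in all, and *H19* and *Cdkn1c* had none. The bases before the start site are shown for the 2 windows with a match, with the matches in capitals.
Peg3: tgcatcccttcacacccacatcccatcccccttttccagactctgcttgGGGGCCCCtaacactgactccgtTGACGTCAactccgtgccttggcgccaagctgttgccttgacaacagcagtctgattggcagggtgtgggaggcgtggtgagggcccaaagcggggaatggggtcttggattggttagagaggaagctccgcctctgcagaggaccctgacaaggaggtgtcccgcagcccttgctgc
Meg3: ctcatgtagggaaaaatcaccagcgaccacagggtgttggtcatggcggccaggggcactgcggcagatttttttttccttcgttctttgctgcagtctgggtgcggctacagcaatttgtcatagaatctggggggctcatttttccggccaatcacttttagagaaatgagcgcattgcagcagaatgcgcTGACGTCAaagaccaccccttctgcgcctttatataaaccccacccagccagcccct
The *Peg3* stretch (chr7:6730420-6730669, minus strand) holds the PLAGL1 core, starting 201 bases before the start site, and the cAMP response element, starting 178 bases before it. The *Meg3* stretch (chr12:109540746-109540995, plus strand) holds the cAMP response element, starting 57 bases before the start site. A match of letters is a description of the window and does not show that a factor was bound.

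*Dlk1* and *Meg3* form a second cluster of a paternally expressed protein gene and a maternally expressed noncoding RNA, at chr12:109452823-109463336 and chr12:109540996-109571729 (plus strand), 77.7 kb apart. *Dlk1*, which encodes a membrane protein that holds back the maturation of fat cell precursors, was listed at 0 in CTR 2, CTR 3, CTR 4 and TG 3. It had 0.0166 FPKM in CTR 1, 0.0478 FPKM in TG 1 and 0.0148 FPKM in TG 2, and no papilloma had more than 2 implied reads, so no difference was detectable at this depth. *Meg3* was measured at 2.26, 1.88, 2.39 and 3.14 FPKM in CTR papillomas and 4.05, 1.14 and 6.62 FPKM in TG papillomas. TG 3 and TG 1 were above the CTR range and TG 2 was the lowest of all 7, so the order of TG papillomas differed from that of *H19*. The TG mean was 3.94 ± 2.74 FPKM (SD, n = 3) and the CTR mean 2.42 ± 0.526 FPKM (SD, n = 4), with a log2 difference of 0.38 (SE 0.44) that became -0.08 without TG 3. *Rian*, the next noncoding RNA of that cluster, had a similar order, with 1.12, 0.508 and 2.27 FPKM in TG 1 to TG 3 and between 0.536 and 0.950 FPKM in CTR papillomas. The ratio of *Meg3* to *Rian* stayed between 2.24 and 4.00 in the 7 papillomas.

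Among genes that limit IGF signalling, *Igf2r*, the receptor that takes IGF2 to the lysosome (chr17:12682406-12769706, minus strand), was the most abundant of the 10 in every papilloma. Its level was 7.90, 5.05, 7.85 and 9.62 FPKM in CTR papillomas and 6.24, 6.07 and 17.0 FPKM in TG papillomas. TG 3 was 1.76 times the highest CTR papilloma, and TG 1 and TG 2 were inside the CTR range. With at least 829 implied reads in each papilloma, this was the most precise of the 10 levels. TG papillomas averaged 9.76 ± 6.25 FPKM (SD, n = 3) and CTR papillomas 7.61 ± 1.89 FPKM (SD, n = 4), and the log2 difference of 0.21 (SE 0.36) became -0.25 without TG 3. *Airn*, the antisense RNA that silences the paternal *Igf2r* copy, was at 1.55, 3.17 and 4.18 FPKM in TG 1 to TG 3 and between 2.26 and 3.13 FPKM in CTR papillomas. The libraries keep strand, but whether it was used in the estimate is not given in the sources used here, so the levels of *Igf2r* and *Airn* where they overlap are uncertain.

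*Grb10*, an adaptor that dampens insulin and IGF1 receptor signalling (chr11:11930499-12037420, minus strand), was also highest in TG 3. Its level was 0.294, 0.638, 0.316 and 0.546 FPKM in CTR papillomas and 0.643, 0.495 and 1.83 FPKM in TG papillomas. TG 1 was next to the highest CTR papilloma, TG 2 was inside the CTR range and TG 3 was 2.87 times the highest CTR papilloma. The TG mean was 0.990 ± 0.732 FPKM (SD, n = 3) and the CTR mean 0.449 ± 0.170 FPKM (SD, n = 4), with a log2 difference of 0.56 (SE 0.34) that was 0.19 without TG 3. *Grb10* too passed the filter on low values through the TG papillomas.

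*Cdkn1c*, which encodes the cell cycle inhibitor p57, was the gene of the 10 with a lower mean in TG and with its highest value in a CTR papilloma. It lies at chr7:143458339-143461050 (minus strand), 797.3 kb from *Igf2*. Its level was 0.212, 0.692, 0.816 and 3.15 FPKM in CTR papillomas and 0.943, 0.458 and 0.754 FPKM in TG papillomas. All TG papillomas were inside the CTR range, which CTR 4 stretched to 3.87 times the next CTR papilloma. The TG mean was 0.718 ± 0.245 FPKM (SD, n = 3) and the CTR mean 1.22 ± 1.32 FPKM (SD, n = 4), and the log2 difference of -0.24 (SE 0.49) was below the pooled SD and changed sign, to 0.21, without CTR 4.

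*Plagl1*, a zinc finger transcription factor known as a regulator of other imprinted genes (chr10:13090788-13131695, plus strand), was measured at 0.471, 1.98, 1.12 and 1.17 FPKM in CTR papillomas and 1.14, 2.42 and 0.751 FPKM in TG papillomas. It was highest in TG 2 and, in TG 3, lower than in all CTR papillomas but CTR 1, so TG 3 was inside the CTR range. The TG mean was 1.44 ± 0.874 FPKM (SD, n = 3) and the CTR mean 1.18 ± 0.617 FPKM (SD, n = 4), and the log2 difference was 0.19 (SE 0.38), below the pooled SD of 0.58, and changed sign without TG 2 (-0.16) or without CTR 1 (-0.05).

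*Mest*, which encodes a membrane enzyme of the hydrolase family and is expressed from the paternal copy (chr6:30733506-30748466, plus strand), had the most even difference. Its level was 1.297, 2.10, 1.56 and 1.87 FPKM in CTR papillomas and 2.48, 2.19 and 3.31 FPKM in TG papillomas. Every TG papilloma lay above every CTR papilloma, although TG 2 was only 1.04 times the highest of them and their intervals overlapped. The TG mean was 2.66 ± 0.577 FPKM (SD, n = 3) and the CTR mean 1.71 ± 0.351 FPKM (SD, n = 4), and the log2 difference of 0.52 (SE 0.21) was 0.37 without TG 3.

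Over the 10 genes, the mean on the log2 scale was higher in TG for 9, and for 6 without TG 3. Across all genes tested, 60.0% had a higher mean in TG. 6 of the 10 were highest in TG 3, namely *H19*, *Igf2*, *Meg3*, *Grb10*, *Igf2r* and *Mest*, against 41.1% of all genes tested. Of the rest, 2 were highest in TG 2, 1 in TG 1 and 1 in CTR 4. 2 of the 10, *Peg3* and *Mest*, did not overlap between groups, against 4.93% of all genes tested with every TG papilloma above every CTR papilloma, and 0 of the 10 had every TG papilloma below every CTR papilloma, against 2.23%. 3 of the 10, *Igf2*, *Dlk1* and *Peg3*, were below the filter on low values, which all genes behind these shares had passed. Of the 7 members that passed it, 6 had a higher mean in TG and 5 were highest in TG 3. Only 1 of the 7 had every TG papilloma above every CTR papilloma. Nothing is read from these counts, since the contrast was known when the genes were picked. The size of the log2 difference reached the pooled SD for 4 of the 10 and not for 6. Judged by the intervals of single libraries, TG 1 exceeded every CTR papilloma for 0 of the 10 genes, TG 2 for 2 (*H19* and *Peg3*) and TG 3 for 7. CTR 1 had the lowest level, alone, for 7 of the 10. Shares over all genes were not worked out for the counts by pooled SD, by intervals, by lowest level or without TG 3. The median FPKM over all entries was itself highest in TG 3, at 1.14, and lowest in CTR 1, at 0.539. Nothing is read from these counts either.

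**Figure D2:**
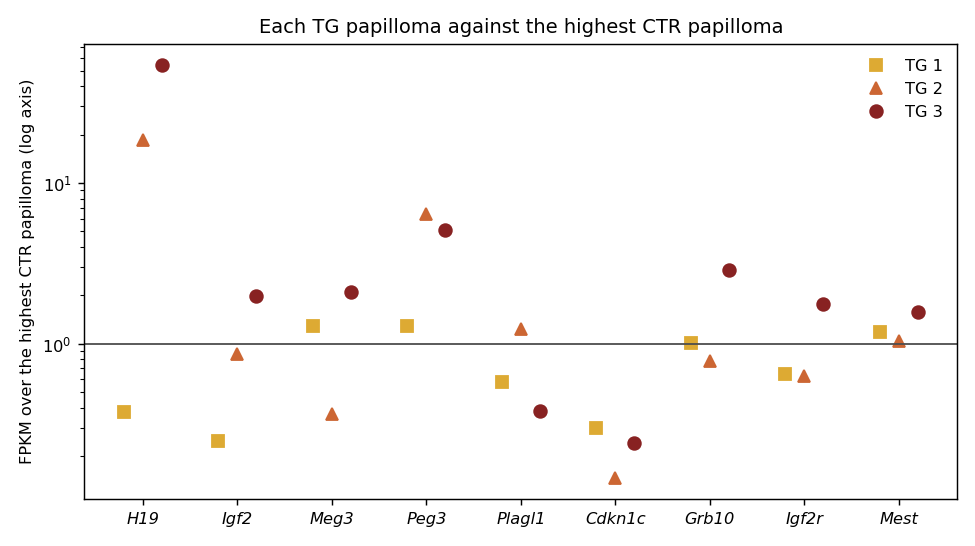
FPKM in each TG papilloma divided by the highest CTR papilloma (log axis) for 9 of the 10 genes, leaving out *Dlk1*, which had at most 2 implied reads. Symbols are TG 1, TG 2 and TG 3 and the line marks equal levels. *H19* reaches 18.6 in TG 2 and 54.5 in TG 3, and the points of *Cdkn1c* all lie under the line.

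TG 3 also differed from the other papillomas in markers of other cells. All 17 skeletal muscle markers were highest in TG 3, and their summed level was 984.5 FPKM there, between 9.32 and 14.5 FPKM in CTR papillomas, 9.39 FPKM in TG 1 and 11.3 FPKM in TG 2. *Tnni2* and *Mylpf* gave most of the sum outside TG 3. Without them the other 15 markers summed to between 0.607 and 1.47 FPKM in CTR papillomas, 1.53 FPKM in TG 1, 5.04 FPKM in TG 2 and 846.9 FPKM in TG 3. TG 2 was above all CTR papillomas for 13 of the 17 muscle markers. Its sum without *Tnni2* and *Mylpf* was 0.596% of that in TG 3, its *H19* level was 34.1% and its *Peg3* level 125.0% of that in TG 3. Of 8 markers of muscle precursors, 5 were highest in TG 3. Their sum, mostly *Chrna1*, was 0.842 FPKM in TG 2 and 1.68 FPKM in TG 3, with a CTR range of 0.645 to 2.04 FPKM. Without *Chrna1* the sum was 1.03 FPKM in TG 3, 0.174 and 0.209 FPKM in TG 1 and TG 2 and between 0.0861 and 0.153 FPKM in CTR papillomas.

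Fibroblast markers summed to 688.5 FPKM in TG 3, with 10 of 12 highest there, to 116.7 and 101.9 FPKM in TG 1 and TG 2 and to between 84.5 and 145.8 FPKM in CTR papillomas. Of 9 adipocyte markers 7 were highest in TG 3, although their sum, mostly *Fabp4*, was 1746 FPKM there, 1558 and 2287 FPKM in TG 1 and TG 2 and between 1386 and 3263 FPKM in CTR papillomas. *Adipoq*, *Plin1*, *Cfd*, *Cidec*, *Lep* and *Retn*, which were at or near 0 in CTR papillomas (at most 0.0484 FPKM in sum), summed to 34.7 FPKM in TG 3, 0.0443 FPKM in TG 1 and 0.125 FPKM in TG 2. *Adipoq* and *Lep* in TG 1, and *Lep* and *Retn* in TG 2, were above CTR papillomas, all of which were listed at 0 for these genes. The sum of 8 endothelium markers was 28.6, 14.2 and 36.8 FPKM in TG 1 to TG 3 and between 11.1 and 17.8 FPKM in CTR papillomas. Of 9 leukocyte markers 7 were highest in TG 3, among them *Ptprc* at 8.17 FPKM and *Csf1r* at 9.09 FPKM. Their sum was 50.003 FPKM in TG 3, 21.9 and 25.9 FPKM in TG 1 and TG 2 and between 22.2 and 26.9 FPKM in CTR papillomas. *Cd68* gave most of this sum outside TG 3. Without it the sum was 31.8 FPKM in TG 3, 6.22 and 8.26 FPKM in TG 1 and TG 2 and between 4.88 and 8.22 FPKM in CTR papillomas. The 10 keratinocyte markers, which define the tissue named by the labels, were high throughout, with a sum of 18781 FPKM in TG 3, 37967 and 30984 FPKM in TG 1 and TG 2 and between 24324 and 27137 FPKM in CTR papillomas. They did not move together, since *Krt14*, *Krt1*, *Krt10*, *Krt6a* and *Krt16* were lowest in TG 3 while *Krt5* and *Dsg3* were highest there. The other keratinocyte markers were neither highest nor lowest in TG 3. The part of these other cells in the levels of the 10 genes was not tested.

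**Figure D3:**
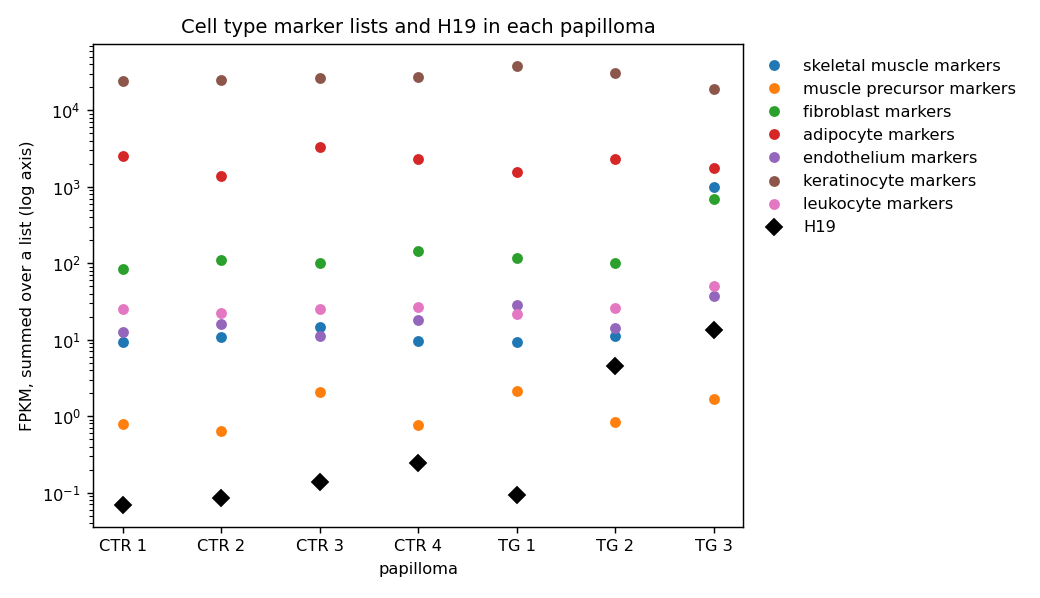
Summed FPKM of each list of cell type markers and FPKM of *H19* (black diamonds) in each papilloma, on a log axis. Skeletal muscle and fibroblast markers stand apart in TG 3, at 984.5 and 688.5 FPKM, while *H19* is high in both TG 2 and TG 3.

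Other imprinted genes and other genes of the IGF system were set beside the 10. Of 65 other imprinted genes, several of which are imprinted in a few tissues only, 63 were in the files and 32 passed the filter on low values. 0 were higher and 0 lower at an adjusted p of 0.05 by limma, the lowest adjusted p being 0.587. At an unadjusted p under 0.05, 3 of the 32 were higher and 1 lower, against 4.86% and 1.96% of all genes tested. The median log2 difference was 0.11, against 0.06 for all genes tested, and 18 of the 32 were highest in TG 3, against 41.1% of all genes. The 4 with an unadjusted p under 0.05 were *Ampd3*, *Slc22a18*, *Blcap* and *Mcts2*. *Ampd3*, an AMP deaminase, was at 9.16, 12.1 and 6.04 FPKM in TG papillomas and 3.79 ± 1.59 FPKM (SD, n = 4) in CTR papillomas, with a log2 difference of 1.19 (SE 0.33, limma adjusted p = 0.587), so it was highest where *H19* was second. *Dcn*, which encodes the matrix proteoglycan decorin, had the largest log2 difference of the list, 1.41 (SE 0.98, limma adjusted p = 0.842), through 44.6 FPKM in TG 3, and its difference was 0.04 without that papilloma. The other genes of the list with large differences were *Slc38a4*, an amino acid transporter, at 0.96, *Gatm*, an enzyme of creatine synthesis, at -0.76, and *Slc22a18*, a transporter, at 0.73. That of *Slc38a4* rested on CTR 1 and was 0.11 without it, and that of *Gatm* was -0.30 without TG 1 and -1.55 without TG 3.

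Of 20 genes of the IGF system, 13 passed the filter, and by limma 0 were higher and 0 lower at an adjusted p of 0.05. The median log2 difference was 0.58, against 0.06 for all genes tested. Of the 13 differences 11 were above 0, against 60.0% of all genes, and 10 of the 13 genes were highest in TG 3, against 41.1%. *Igfbp7*, a secreted IGF binding protein abundant in vessels, was higher in every TG papilloma, with 58.3, 32.0 and 69.4 FPKM against 25.7 ± 5.20 FPKM (SD, n = 4) in CTR papillomas (log2 difference 0.98, SE 0.28, limma adjusted p = 0.595). Its level in TG 2 was only 1.06 times the highest CTR papilloma. *Igfbp2*, another secreted IGF binding protein, was lower in every TG papilloma, with 9.46, 3.32 and 10.3 FPKM against 10.8, 10.8, 27.7 and 14.1 FPKM (log2 difference -1.03, SE 0.43, limma adjusted p = 0.719). These were the 2 genes of the list with an unadjusted p under 0.05, against 6.82% of all genes. *Igfbp2* was at -0.55 without TG 2. *Igf2bp2*, which binds *Igf2* mRNA, had a log2 difference of 0.88, which was 0.30 without CTR 1, and the binding proteins *Igfbp5* and *Igfbp6* had 0.84 and 0.82, which became -0.28 and 0.09 without TG 3. The ligand *Igf1* was at 2.81 FPKM in TG 3, 0.406 and 0.909 FPKM in TG 1 and TG 2 and between 0.192 and 1.00 FPKM in CTR papillomas, and its receptor *Igf1r* was at 5.58 FPKM in TG 3 and between 1.48 and 3.51 FPKM in the other 6.

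Of 16 genes that set or keep imprints, 15 were usable, *Dnmt1* having a failed estimate, and 10 passed the filter. By limma 0 differed at an adjusted p of 0.05 and 0 at an unadjusted p under 0.05, the latter against 6.82% of all genes tested. The median log2 difference was -0.04. The largest was that of *Dnmt3l*, a partner of the DNA methyltransferases of the germ line, with 6.54, 3.40 and 0.784 FPKM in TG papillomas against 1.41 ± 0.0514 FPKM (SD, n = 4), a log2 difference of 0.78 (SE 0.48, limma adjusted p = 0.831) that was 1.46 without TG 3 and 0.23 without TG 1. *Dnmt3l* was thus highest in TG 1 and lowest in TG 3 of all papillomas, and a link to *H19* was not tested. *Hells*, *Uhrf1*, *Tet2* and *Trim28* had log2 differences between -0.40 and 0.23.

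**Figure D4:**
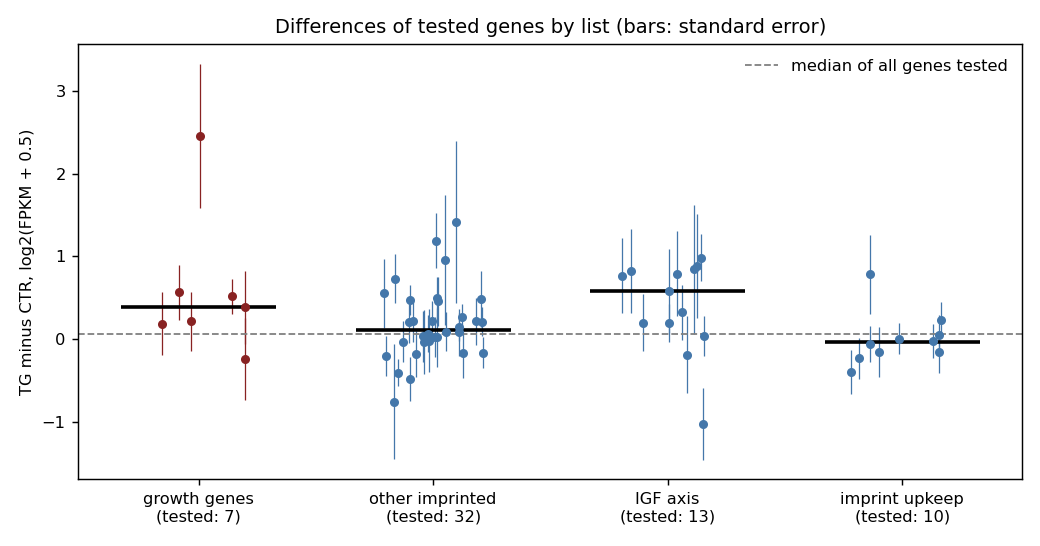
Differences TG minus CTR on the log2(FPKM + 0.5) scale for genes that passed the filter on low values, by list, with standard errors as bars, list medians as thick lines and the median of all genes tested as a dashed line. *H19* is the highest point, at 2.46, and the medians are 0.38, 0.11, 0.58 and -0.04 from left to right.

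The genes whose levels over the 7 papillomas were most like those of *H19* were found among all genes tested by the root mean square distance of centered log2 values. The 5 nearest were *Hand1* (distance 0.34), a transcription factor of heart and trophoblast, *Slc6a14* (0.46), an amino acid transporter, *Hdc* (0.66), which makes histamine, *Gp49a* (0.77), a receptor of myeloid cells, and *Srgn* (0.77), the granule proteoglycan serglycin. *Hand1* was at 0.0699, 5.43 and 10.4 FPKM in TG 1 to TG 3 and between 0 and 0.339 FPKM in CTR papillomas. *Slc6a14* was at 5.35, 20.6 and 112.8 FPKM in TG papillomas and between 1.84 and 4.63 FPKM in CTR papillomas. *Hand1*, like *H19*, passed the filter on low values only through the TG papillomas. Of the other imprinted growth genes, *Igf2*, *Dlk1* and *Peg3* were too low to enter this search, and the 6 that entered were not among the 5 nearest. The distance takes in the size of a difference as well as the order of the papillomas. Those 6 had log2 differences between -0.24 and 0.56, against 2.46 for *H19*, so their absence says nothing about a shared order.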

How the data were processed

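RNA of 7 papillomas (4 CTR, 3 TG, each from a different mouse, grouped by the sample labels) was sequenced as stranded polyA+ libraries. The authors aligned single reads to GRCm38/mm10 with TopHat2 2.0.4 (Bowtie 0.12.7, SAMtools 0.1.16) and deposited FPKM values from Cufflinks 1.3.0 for 23746 entries in each papilloma, with intervals and a status. Entries with the same symbol were summed, and 162 symbols with a failed estimate were left out. Implied reads were derived from the interval, taken as 2 SD of counting error on each side, and are approximate. log2(FPKM + 0.5) was fitted by limma across genes averaging at least 0.5 FPKM (limma 3.58.1, R 4.3.3, trend, Benjamini-Hochberg, threshold 0.05), after the script was tested on simulated data. No further scaling was applied. Python 3.11.15 was used for the rest.

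The members, lists and tests were chosen with earlier results of these data known. Named were *Nanog*, the 10 members, the 5 nearest to *H19* and, in the other imprinted, IGF system and imprint upkeep lists, genes past the threshold and the 5 largest differences. Genes named beyond these (neighbours in a cluster, *Igf1*, *Igf1r*, genes listed by counts) were chosen after their values were seen. Alternatives covered the pseudocount, filter, scaling, moderation, weights, block, entry and status handling, and each papilloma in turn.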

Additional observations from a re-analysis of the deposited data

Results flagged for a closer look

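2 of 31 genes had a CTR papilloma set far apart from the other 3, by a gap above Dixon's critical value for 4 samples. Chance alone gives about 1 in 20 for normally distributed values. *Dlk1* was at 0.0166 FPKM in CTR 1, which is 0.2 implied reads, and listed at 0 in the other CTR papillomas. Any value above 0 in CTR 1 would have been flagged, so nothing is read from this flag. *Nanog* was at 12.7 FPKM in CTR 3, one of the deeper libraries, a gap of 0.936 of the range.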

How the results depend on the processing

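Under 22 alternatives, of which the covariate for depth group and the papillomas of lower depth were chosen after seeing the data, *H19* (1.46 to 3.74), *Peg3* (0.20 to 1.04), *Grb10* (0.19 to 0.84), *Mest* (0.35 to 0.62) and *Dlk1* kept a positive log2 difference. *Igf2*, *Meg3*, *Plagl1*, *Cdkn1c* and *Igf2r* changed sign under 2 or 3 of them, with *Meg3* at -0.56 under quality weights, and 6 to 10 of the 10 genes had a higher mean in TG. Alternatives of filter, trend, robust moderation, entry and status handling could not alter the differences of the 10 genes and left each as reported. The replicate block gave each of them the same value as leaving out CTR 4. These alternatives therefore add nothing on how steady a sign is. 0 genes of the other imprinted, IGF and upkeep lists passed the adjusted threshold in any of the 22. Among all genes 0 passed in either direction except under quality weights (49 higher and 36 lower), in the papillomas of lower depth (1 higher, *Nanog*) and with a papilloma left out, where 0 to 9 were higher and 0 to 8 lower. Without CTR 3 the 1 gene was *Nanog*, without TG 1 the 2 genes were *Hand1* and *Slc5a8*, and 9 higher and 8 lower passed without TG 3. The cause was not tested. The counts of genes higher and lower at an unadjusted p under 0.05 were 598 and 241 as reported, 394 and 561 after quantile normalization, 1161 and 1248 under quality weights, and 961 were higher with no filter. With the replicate block, 0 genes were higher and 0 lower at the adjusted threshold, 505 and 170 at the unadjusted, and *H19* was at 2.54. Papillomas with the same number did not deviate together (correlations of -0.19, 0.04 and -0.15), and CTR 4 has no partner, so the numbers were not read as a pairing. With 3 to 10 implied reads of *H19* in CTR papillomas, and at most 2 of *Dlk1* anywhere, depth limits every level under about 0.1 FPKM.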

Other observations

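Of the 12299 genes tested, 2 had a level in both TG 2 and TG 3 at least 10 times the highest of the other 5 papillomas, the latter taken as at least 0.05 FPKM. They were *H19* and *Hand1*. This rule was set after the values were seen, and both genes passed the filter on low values only through the TG papillomas. The count is therefore no measure of how rare the pattern is. *Hand1* was at 16 times the highest CTR papilloma in TG 2 and at 30.8 times in TG 3.

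*Sgce*, an imprinted gene for a sarcoglycan of muscle and other cells, was at 2.22 FPKM in TG 3, 0.581 and 0.279 FPKM in TG 1 and TG 2 and between 0.228 and 0.550 FPKM in CTR papillomas. *Copg2*, the neighbour of *Mest*, was at 23.1 FPKM in TG 3 and between 16.1 and 17.8 FPKM in the other 6. *Kcnq1ot1*, the noncoding RNA that silences *Cdkn1c* on the paternal copy, was at 0.194, 0.411 and 0.366 FPKM in TG papillomas and between 0.251 and 0.378 FPKM in CTR papillomas.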
